A study of Mus musculus with 12 samples.

Results

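The genes described here encode the enzymes that carry glucose carbon through glycolysis, into lactate or into mitochondria, and around the tricarboxylic acid (TCA) cycle. They were 39 of the 21899 genes in the deposited table of mouse kidney RNA levels, chosen by gene symbol as enzymes of these steps. By role, 14 act in glycolysis, 2 interconvert pyruvate and lactate, 8 carry or convert pyruvate on its way into the TCA cycle, and 15 act in the TCA cycle or are cytosolic forms of its enzymes. Of the 39, 38 passed the filter on low values used for testing.

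Kidney poly(A) RNA was sequenced as paired ends in 12 libraries, 3 in each of 4 groups. The db/m-veh group held lean, heterozygous control mice given vehicle, and the db/db-veh group held db/db mice given vehicle, whose leptin receptor is defective and which grow obese and diabetic. The db/m-GABP-OE group held db/m mice in which the transcription factor GABP was to be overexpressed, and the db/db-GABP-KD group held db/db mice in which it was to be knocked down. Each GABP group was compared with the vehicle group of its genotype, so the comparisons share db/m-veh or db/db-veh libraries with that of the 2 vehicle groups and are not independent of it. The sources used here do not give the age or sex of the mice or how GABP was altered. Kidneys of 6 mice were used per group, with tissue of 3 mice mixed for an extraction, so libraries of a group may share animals or a pool. The p-values measure the spread between these libraries only, which may be partly technical, and shared animals would make them too small.

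Glycolysis splits glucose into pyruvate in the cytosol. Pyruvate is then reduced to lactate or enters mitochondria, where the pyruvate dehydrogenase complex turns it into acetyl-CoA for the TCA cycle, which feeds electrons to the respiratory chain. In the kidney, proximal tubule cells burn mainly fatty acids and lactate, make glucose and carry little glycolysis, while segments further along the nephron depend more on glycolysis. GABP binds the ETS motif in promoters of many nuclear genes for mitochondrial proteins.

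Because GABP is the factor named in the design, the promoters of these enzymes were searched for its core motif, the letters CCGGAAG on either strand, from 250 bases before to 50 bases after each RefSeq start site (GRCm38.p6). The motif was present in 4 of the 38 genes with a promoter in the table, or 10.5%, against 9.93% of all genes in that table and 19.1% of the protein-coding genes tested here. Idh3a was not in the promoter table. The 4 windows are shown because these are the genes among the enzymes with the motif near the start. Each is written 5′ to 3′ on the strand of its gene, with the motif in capitals, so that CTTCCGG is the motif on the opposite strand.
Dlst: ggccggtctcaCTTCCGGttgctgccggg
Idh3b: gaccgcgctcgCTTCCGGcgtcacttccc
Idh3g: tgctctaggcaCCGGAAGggggcgtaaga
Mpc1: ccgctgagaccCCGGAAGcctgcccagga
Dlst, on chr12:85110823-85110851 (plus strand), encodes the succinyltransferase of the 2-oxoglutarate dehydrogenase complex. Idh3b, on chr2:130284439-130284467 (minus strand), and Idh3g, on chrX:73786984-73787012 (minus strand), encode subunits of the NAD-linked isocitrate dehydrogenase. Mpc1, on chr17:8283551-8283579 (plus strand), encodes a subunit of the mitochondrial pyruvate carrier. The motif lay 1 base from the start site in Dlst, 5 bases in Idh3b, 104 bases in Idh3g and 225 bases in Mpc1. No glycolysis or lactate gene had it in this window. A match is a description of the letters only.

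The deposited values are FPKM, which are fragments scaled for exon length and for library depth, and rest on 6.78 to 9.70 M fragments per library (M, 1e6). Genes of the mitochondrial genome took 47.9% to 85.9% of these, which left 1.08 to 4.39 M for nuclear genes. Over the 12897 genes tested, the log2 fold change had a median of -0.24 in the diabetic comparison, 0.38 with GABP-OE and 0.42 with GABP-KD. Median of ratios scaling, which sets the typical nuclear gene equal between libraries, brought these medians to 0.01, 0.04 and 0.00. Fold changes below are therefore given as deposited, on the log2(FPKM + 0.5) scale, and for most genes named also after median of ratios. Gabpa, the DNA-binding subunit of GABP, averaged 2.22 ± 0.39 FPKM (SD, n = 3, as throughout) in lean controls and 3.50 ± 0.18 in GABP-OE, and 2.00 ± 0.32 in db/db-veh and 4.23 ± 2.10 in GABP-KD. Scaled, it averaged 2.33 ± 0.49, 2.69 ± 0.11, 2.83 ± 1.11 and 3.52 ± 0.46 in the same order. Its mean was thus not lower under the knockdown label on either scale. Under the overexpression label its mean was higher, but after scaling by less than the SD of lean controls. GABP-OE and GABP-KD below stand for the libraries labelled so. Library db/db-GABP-KD 1, with 47.9% mitochondrial fragments, stood apart, and values of the genes that were highest in it are given without it as well. Defining markers of proximal tubule were present in every group, with summed FPKM of 6 genes from 179.9 to 930.0.

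Within each library the enzymes differed far more from each other than between groups. Aldoa, which cleaves fructose bisphosphate, and Ldhb, the heart-type lactate dehydrogenase subunit, had the highest group means, at 158 ± 39.2 and 149 ± 55.8 FPKM in db/m-veh. Mdh1, the cytosolic malate dehydrogenase, followed at 76.9 ± 33.6 and Idh1, the cytosolic NADP-linked isocitrate dehydrogenase, at 51.2 ± 24.4. At the low end stood the hexokinase gene Hk2, at 0.05 ± 0.04 FPKM in db/m-veh and at most 0.50 in any library. It had 94 fragments in all, of which lean controls held 7, diabetic ones 17, GABP-OE 32 and GABP-KD 38, too few for a comparison. The liver-type pyruvate kinase gene Pklr (1.57 ± 0.69 FPKM), Pdk1 (1.55 ± 0.54), Mpc1 (1.59 ± 1.03) and the phosphofructokinase gene Pfkp in db/m-veh were also low. The main hexokinase was Hk1, at 4.20 ± 0.40 FPKM, and the phosphofructokinase subunits Pfkl, Pfkm and Pfkp each stayed between 0.78 and 5.75 FPKM in all libraries.

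**Figure D1:**
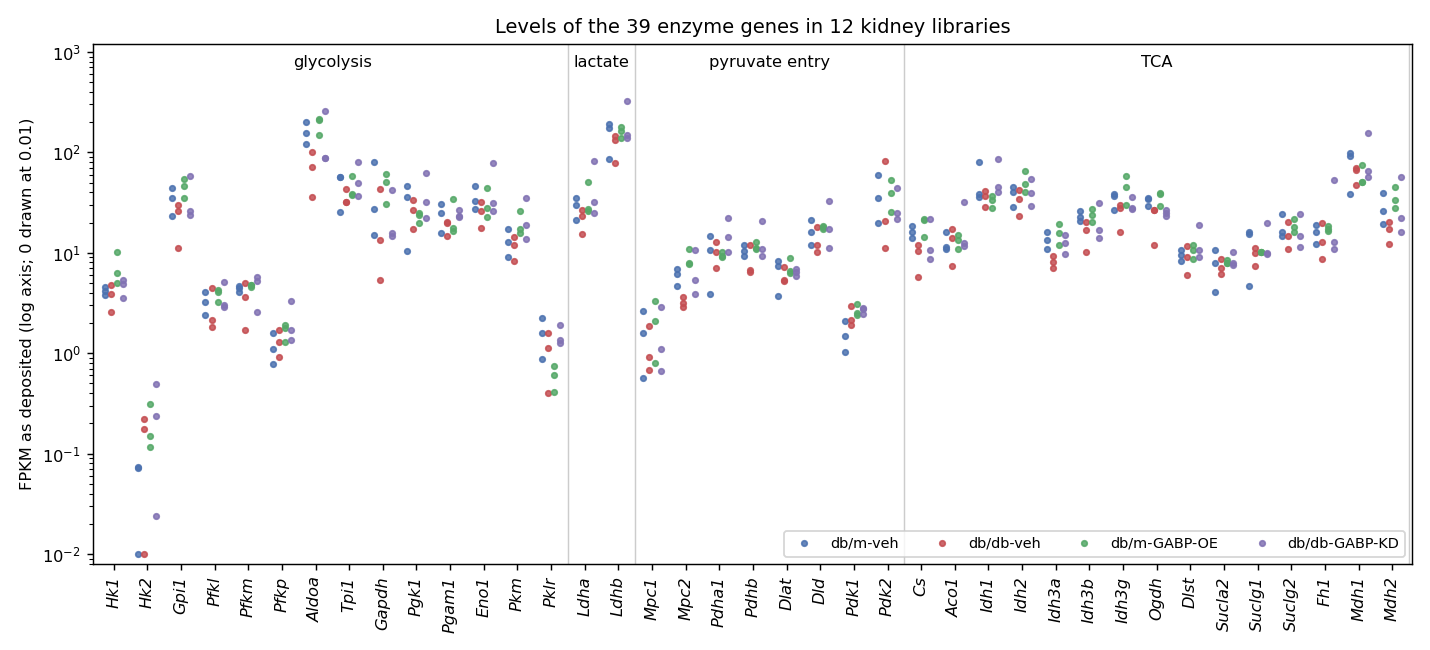
FPKM as deposited, on a log axis, for each of the 39 enzyme genes (values of 0 drawn at 0.01), with 1 point per library coloured by group and genes ordered by step. Aldoa and Ldhb have the highest means and Hk2 the lowest in all 4 groups, and the groups overlap for most genes. In db/db-veh 2 Aldoa, at 35.6 FPKM, lies below Mdh1, at 46.9.

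No enzyme passed the test in any comparison. With limma and Benjamini-Hochberg adjustment over all genes, 0 of 38 had an adjusted p under 0.05 in db/db-veh against db/m-veh (0.093% of all genes tested did), 0 in GABP-OE against db/m-veh (1.9%), and 0 in GABP-KD against db/db-veh (0% of all genes). At an unadjusted p under 0.05 the enzymes numbered 1, 2 and 1, against 11.5%, 15.1% and 14.3% of all genes. Scaled by median of ratios, 0 were called again (0.171%, 0.209% and 0.0388% of all genes were), with 2, 2 and 0 at an unadjusted p under 0.05, against 12%, 7.53% and 6.48% of all genes. The voom method on recovered fragments also called 0 in each comparison, where 0.0317%, 0.0396% and 0.0555% of all genes were called. At an unadjusted p under 0.05 it had 2, 2 and 0 of 37 enzymes, against 10.1%, 7.17% and 6.03% of all genes. With limma's library weights, which count deviant libraries less, 0, 3 and 0 enzymes were called, where 4.98%, 21.4% and 1.23% of all genes were. The 3 were Pklr, Pdk1 and Idh1 in GABP-OE. With both the weights and median of ratios, a combination tried after seeing the data, 8, 11 and 0 enzymes were called, where 28.1%, 24.9% and 2.28% of all genes were.

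In the diabetic kidneys, the glycolytic gene with the largest difference was Aldoa, whose mean was 0.44 of its lean level. Aldoa (ENSMUSG00000030695, GRCm38 chromosome 7, 126795234 to 126800751, minus strand) encodes aldolase A, the form of muscle and red cells. It stood at 155, 120.4 and 199 FPKM in the db/m-veh libraries and at 72.1, 35.6 and 99.7 in db/db-veh. Each diabetic library lay below each lean one, and db/db-veh 2 was the lowest. The log2 fold change was -1.28 (with SE 0.50, limma adjusted p = 0.33), and with median of ratios -0.90 (SE 0.32, adjusted p = 0.27), again with no overlap. A second identifier that carries the symbol Aldoa, for a gene model just upstream, was at 0.40 FPKM or less in all libraries. Summed FPKM of 5 red blood cell genes, all detected, was also lower, at 134 to 330.4 in db/db-veh against 582 to 1187 in db/m-veh. Within db/m-veh the sums were 937, 1187 and 582 in libraries 1 to 3, highest where Aldoa was lowest. Within db/db-veh they were 323, 134 and 330, and ranked as Aldoa did. In GABP-KD the sum averaged 117 and Aldoa 145 FPKM, against 263 and 69.1 in db/db-veh. Within GABP-KD the sums were 266, 32.9 and 51.1 and Aldoa 261, 88.6 and 87.1 FPKM, both highest in library 1. The part of red cells in the result was not tested. In bulk samples such as these, fewer cells of a type and less RNA per cell cannot be told apart.

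The other glycolytic genes overlapped between the vehicle groups. Gapdh, the glyceraldehyde phosphate dehydrogenase, had the next smallest p of its step, with 80.2, 15.2 and 27.4 FPKM in lean controls and 13.3, 5.31 and 43.4 in diabetic ones. It differed as much within each group as between them (log2 fold change -1.11 with SE 0.69, limma adjusted p = 0.57, and -0.74 after scaling). Relative to the all-gene median Gapdh stood at -0.87, at -0.25 without db/m-veh 1, at -0.33 without db/db-veh 2 and at -1.60 without db/db-veh 3. For Gpi1, which turns glucose 6-phosphate into fructose 6-phosphate, the means were 34.0 ± 10.3 and 22.2 ± 9.72 FPKM (log2 fold change -0.67 with SE 0.47, limma adjusted p = 0.62, and -0.30 after scaling). Without scaling 8 of 13 glycolytic genes lay below the all-gene median and 5 above, and after scaling 6 lay below and 7 above.

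For lactate, both subunit genes overlapped between the vehicle groups. Ldha, the muscle-type subunit, stood at 21.3, 34.8 and 30.0 FPKM in db/m-veh and at 26.5, 15.4 and 23.0 in db/db-veh (log2 fold change -0.40 with SE 0.47, limma adjusted p = 0.80). Ldhb stood at 85.6, 173 and 189 in db/m-veh and at 146, 78.5 and 133 in db/db-veh (log2 fold change -0.30 with SE 0.46, adjusted p = 0.86). Scaled, their log2 fold changes were -0.03 and 0.09. The lowest value of both genes was that of db/db-veh 2, the library with the largest mitochondrial share.

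Between pyruvate and acetyl-CoA, the 2 genes with the smallest p differed in opposite directions. Mpc2, the partner of Mpc1 in the mitochondrial pyruvate carrier, was at 4.70, 6.19 and 6.93 FPKM in db/m-veh and at 3.59, 2.92 and 3.14 in db/db-veh. All 3 diabetic libraries were lower as deposited (log2 fold change -0.78 with SE 0.37, limma adjusted p = 0.43), and the groups overlapped after scaling (-0.44, adjusted p = 0.53). Pdk1, a kinase that switches pyruvate dehydrogenase off, was at 1.49, 2.11 and 1.03 FPKM in db/m-veh and at 2.96, 2.14 and 1.92 in db/db-veh. Its log2 fold change was 0.49 (with SE 0.30, limma adjusted p = 0.56) as deposited and 0.81 (SE 0.32, adjusted p = 0.33) after scaling, with overlap on both scales. Pdhb, a subunit of pyruvate dehydrogenase, overlapped too, at 9.32, 10.5 and 12.1 against 11.99, 6.79 and 6.47 FPKM (log2 fold change -0.36 with SE 0.39, limma adjusted p = 0.77, and -0.0012 after scaling).

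In the TCA cycle, the 3 genes with the smallest p had lower means in the diabetic kidneys. Cs, the citrate synthase that joins acetyl-CoA to oxaloacetate (ENSMUSG00000005683, chromosome 10, 128337734 to 128362479, plus strand), was at 16.0, 14.0 and 18.5 FPKM in db/m-veh and at 10.3, 5.70 and 11.9 in db/db-veh. The groups did not overlap as deposited (log2 fold change -0.82 with SE 0.42, limma adjusted p = 0.47) or after scaling (-0.45, SE 0.25, adjusted p = 0.50). Idh3a, the catalytic subunit of the NAD-linked isocitrate dehydrogenase, was at 10.9, 13.3 and 16.0 FPKM in db/m-veh and at 9.30, 7.09 and 8.14 in db/db-veh. It did not overlap as deposited (log2 fold change -0.67 with SE 0.36, limma adjusted p = 0.49), and it did after scaling (-0.31). Ogdh, which decarboxylates 2-oxoglutarate, had means of 32.9 ± 3.35 and 21.8 ± 8.59 FPKM and likewise overlapped only after scaling (log2 fold change -0.67 and -0.30, limma adjusted p = 0.54 and 0.74).

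Counted over the list, 6 enzymes (Aldoa, Mpc2, Cs, Idh3a, Idh3b and Ogdh) had all db/db-veh libraries below all db/m-veh libraries and 0 had them above, where 14.4% and 1.46% of all genes did. Scaled, 3 (Aldoa, Cs and Idh3b) lay below and 1 (Dlst) above, against 9.03% and 8.3% of all genes. The median log2 fold change of the 38 enzymes was -0.30, beside -0.24 for all genes, and 0.06 beside 0.01 after scaling. Relative to all genes the median of the enzymes was thus -0.05 as deposited and 0.05 after scaling.

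**Figure D2:**
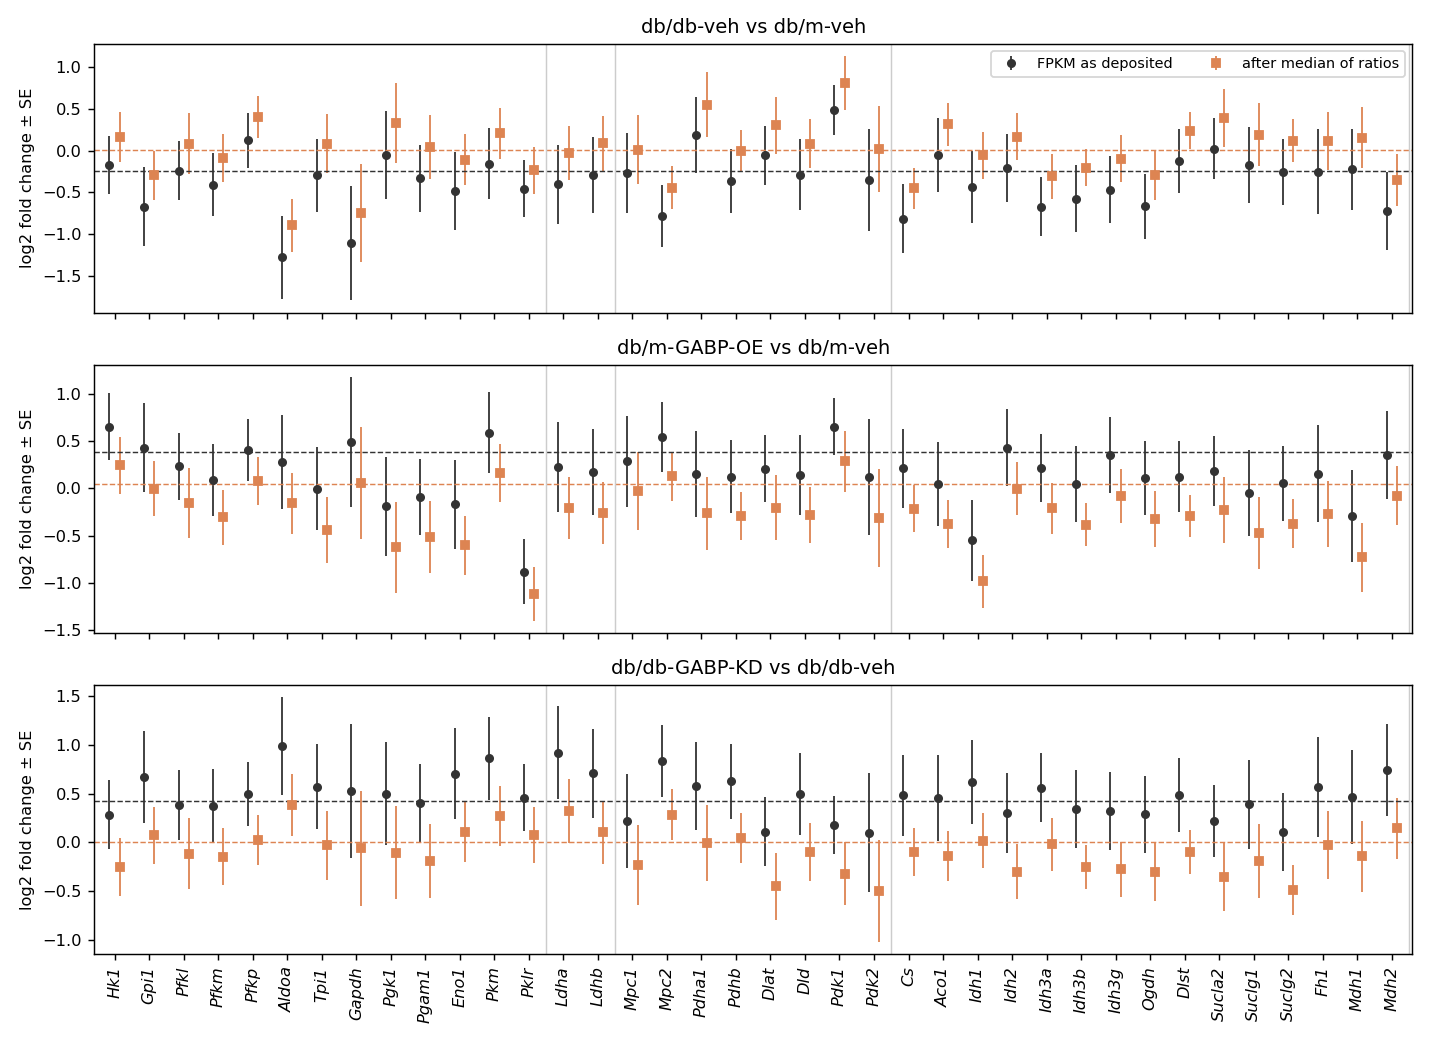
Log2 fold change ± SE from limma for the 38 enzymes tested, as deposited (circles) and after median of ratios (squares), in 3 panels for the 3 comparisons, with dashed lines at the median of all genes. Aldoa is the lowest point in db/db-veh against db/m-veh (-1.28 as deposited) and Pklr in GABP-OE (-0.88), and in GABP-KD all points lie above 0 as deposited and around 0 after scaling.

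In lean mice with the GABP-OE label, the clearest difference was in Pklr. Pklr (ENSMUSG00000041237, chromosome 3, 89136142 to 89146784, plus strand) encodes the liver and red cell form of pyruvate kinase, the last step of glycolysis. It was at 0.88, 1.59 and 2.25 FPKM in db/m-veh and at 0.75, 0.41 and 0.61 in GABP-OE. Every GABP-OE library was below every db/m-veh library on both scales. The log2 fold change was -0.88 (with SE 0.34, limma adjusted p = 0.23), and -1.11 (SE 0.29, adjusted p = 0.19) after median of ratios. These levels rest on 129 fragments in db/m-veh and 52 in GABP-OE. Leaving out db/m-veh 1 with median of ratios, tried after seeing the data, brought the limma adjusted p of Pklr to 0.046, where 0.574% of all genes were called; the same fit called 0 enzymes in the diabetic comparison (0.062% of all genes).

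Other glycolytic genes of this comparison went the other way as deposited. Hk1 was at 4.17, 4.61 and 3.82 FPKM in db/m-veh and at 4.997, 6.28 and 10.2 in GABP-OE, with no overlap (log2 fold change 0.65 with SE 0.35, limma adjusted p = 0.40). Pkm, the pyruvate kinase gene of most other tissues, was at 9.10, 17.3 and 12.8 FPKM in db/m-veh and at 15.9, 17.2 and 26.2 in GABP-OE, with overlap (log2 fold change 0.59 with SE 0.43, limma adjusted p = 0.52). Scaled, Hk1 and Pkm were at 0.25 and 0.16, and both genes overlapped between the groups. Relative to all genes as deposited, Hk1 went from 0.27 to 0.0046 without db/m-GABP-OE 3. Summed FPKM of the 2 leukocyte genes was also higher in GABP-OE, at 6.22 to 14.6 against 1.13 to 2.44 in db/m-veh. So was that of the 4 adipocyte genes, at 7.09 to 19.2 against 0.116 to 0.859. Hk1, Pkm and the leukocyte sum were highest in db/m-GABP-OE 3, and the adipocyte sum was lowest of its group there. The adipocyte marker Adipoq was at 0 in all db/m-veh libraries. The part of either cell type in the enzyme levels was not tested.

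The lactate and pyruvate genes overlapped between GABP-OE and db/m-veh for the most part. Ldha stood at 26.2, 27.2 and 50.3 FPKM in GABP-OE and Ldhb at 141, 178 and 162, each within or above the db/m-veh range given above (log2 fold changes 0.23, SE 0.47, and 0.18, SE 0.46, limma adjusted p = 0.80 and 0.84). Their signs turned with median of ratios, to -0.21 and -0.26. Pdk1, at 3.09, 2.49 and 2.39 FPKM, lay above all db/m-veh libraries as deposited (log2 fold change 0.65 with SE 0.30, limma adjusted p = 0.32) and overlapped after scaling (0.29). Relative to all genes as deposited, Pdk1 went from 0.27 to 0.018 without db/m-veh 3. Mpc2, at 7.95, 7.69 and 11.02 FPKM, did likewise (log2 fold change 0.54 with SE 0.37, limma adjusted p = 0.50, and 0.13 after scaling). For Mpc1 the means were 1.59 ± 1.03 and 2.06 ± 1.25 FPKM (log2 fold change 0.29 with SE 0.48, limma adjusted p = 0.75), which also turned after scaling, to -0.024.

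Idh1 was the TCA-related gene that differed most in GABP-OE. Idh1 (ENSMUSG00000025950, chromosome 1, 65158616 to 65186500, minus strand) makes NADPH in the cytosol. It was at 35.9, 38.2 and 79.3 FPKM in db/m-veh and at 28.01, 36.6 and 33.6 in GABP-OE, which overlapped (log2 fold change -0.55 with SE 0.43, limma adjusted p = 0.54). After median of ratios all GABP-OE libraries were lower, at 22.2 to 28.03 against 36.7 to 73.1 scaled FPKM (log2 fold change -0.98 with SE 0.28, limma adjusted p = 0.24). Idh2, its mitochondrial counterpart, had means of 38.1 ± 8.62 and 51.7 ± 13.0 FPKM (log2 fold change 0.43 with SE 0.41, limma adjusted p = 0.60, and 0.00 after scaling). Idh3g, one of the genes with the GABP motif, was at 33.8 ± 6.39 and 44.4 ± 14.2 FPKM (log2 fold change 0.35 with SE 0.40, limma adjusted p = 0.65, and -0.08 after scaling).

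Over the list, most enzymes lay below the all-gene median in GABP-OE, a pattern with no test of its own. Their median log2 fold change was 0.17 beside 0.38 for all genes, and -0.26 beside 0.04 after median of ratios. Relative to all genes this was -0.22 as deposited, beside -0.17 for 39 further genes of the same pathways. The pooled SD between libraries was 0.26. In single libraries the enzyme median exceeded that of all genes by 2.39, 3.00 and 2.90 log2 units in db/m-veh. In GABP-OE it did so by 2.41, 2.53 and 2.74, so the libraries overlapped. For the TCA genes these values were 2.76, 3.01 and 3.27 against 2.43, 2.80 and 2.83, also with overlap. Below the all-gene median lay 30 of 38 as deposited and 32 of 38 after scaling. Of the 15 TCA genes 14 lay below as deposited and 15 after scaling, and over the alternatives run the number above ranged from 0 to 4, the highest without db/m-GABP-OE 1. Libraries did not overlap for 3 enzymes that were higher (Hk1, Mpc2 and Pdk1) and 1 that was lower (Pklr), against 30.4% and 0.923% of all genes, and after scaling for 0 higher and 6 lower, against 9.72% and 4.7%. The 6 were Pfkm, Pklr, Idh1, Idh3b, Ogdh and Dlst. Summed FPKM of the 2 loop of Henle genes moved with the group, at 64.0 to 86.1 in db/m-veh and 148 to 155 in GABP-OE, and their part in the pattern was not tested.

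In db/db mice with the GABP-KD label, all 38 enzymes tested had a log2 fold change above 0 as deposited, and the largest values were those of library db/db-GABP-KD 1 for many of them. Pkm was at 35.0, 13.7 and 18.9 FPKM in GABP-KD against 14.4, 8.23 and 12.03 in db/db-veh. Aldoa was at 261, 88.6 and 87.1, and Eno1, the main enolase gene, at 78.0, 25.9 and 31.4 in GABP-KD against 25.8, 17.5 and 32.0. In all 3 genes the first GABP-KD library was the highest of the 6 and the remaining ones overlapped with db/db-veh. The log2 fold changes were 0.86 (SE 0.43), 0.99 (SE 0.50) and 0.70 (SE 0.47), with limma adjusted p = 0.35, 0.35 and 0.41. Scaled, the values were 0.27, 0.38 and 0.10. Relative to the all-gene median, leaving out db/db-GABP-KD 1 took Pkm from 0.44 to 0.27, Aldoa from 0.56 to 0.24 and Eno1 from 0.28 to 0.00088.

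The lactate genes were also highest in db/db-GABP-KD 1. Ldha was at 82.8, 24.9 and 32.0 FPKM and Ldhb at 325, 139 and 148 in GABP-KD. The first and the third library lay above all db/db-veh values in both genes, the first by far the most in each, and the second lay within them. Their log2 fold changes were 0.92 (SE 0.47) and 0.71 (SE 0.46), with limma adjusted p = 0.35 and 0.41, and 0.32 and 0.10 after scaling. Relative to the all-gene median, Ldha was at 0.50 with all libraries and 0.19 without db/db-GABP-KD 1, and Ldhb at 0.29 and 0.092.

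Mpc2 was the enzyme-list gene with the smallest p in GABP-KD. It was at 10.6, 3.92 and 5.40 FPKM, each above the db/db-veh libraries (log2 fold change 0.84 with SE 0.37, limma adjusted p = 0.34), and the groups overlapped after median of ratios (0.28, SE 0.26, adjusted p = 0.92). Pdhb, at 20.8, 9.20 and 10.8 FPKM, and Pdha1, its partner subunit, at 22.3, 10.1 and 14.3, overlapped with db/db-veh (log2 fold changes 0.63 and 0.58, limma adjusted p = 0.39 and 0.47, and 0.044 and -0.0064 after scaling). Pdk1, at 2.47, 2.73 and 2.83 FPKM, lay inside the db/db-veh range. Without db/db-GABP-KD 1, Mpc2 went from 0.41 to 0.24 relative to all genes, Pdhb from 0.20 to 0.062 and Pdha1 from 0.16 to 0.067.

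The TCA genes overlapped with db/db-veh with 1 exception as deposited. Idh3a was at 15.1, 9.72 and 12.4 FPKM, above all db/db-veh libraries (log2 fold change 0.56 with SE 0.36, limma adjusted p = 0.40, and -0.02 after scaling). Mdh2, the mitochondrial malate dehydrogenase, was at 56.6, 16.3 and 22.3 FPKM against 17.2, 12.3 and 20.1 (log2 fold change 0.74 with SE 0.47, limma adjusted p = 0.40, and 0.15 after scaling). Idh1 was at 86.8, 45.3 and 40.6 FPKM against 41.5, 28.3 and 37.0 in db/db-veh (log2 fold change 0.62 with SE 0.43, limma adjusted p = 0.43, and 0.019 after scaling). Fh1, the fumarase gene, was at 53.2 FPKM in db/db-GABP-KD 1 and at 10.8 and 12.7 in the remaining GABP-KD libraries. Relative to all genes and without that library, Mdh2 went from 0.32 to 0.0031, Idh1 from 0.20 to 0.063 and Idh3a from 0.14 to 0.19.

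Over the list, 3 enzymes (Mpc2, Idh3a and Pgam1) lay above all db/db-veh libraries and 0 below as deposited, against 17.3% and 0.822% of all genes. After median of ratios 0 lay above and 2 (Idh3b and Suclg1) below, against 4.63% and 5.67%. The median log2 fold change was 0.48 beside 0.42 for all genes, and -0.10 beside 0.00 after scaling. Leaving out db/db-GABP-KD 1, the median relative to all genes went from 0.062 to 0.0016, and 0 enzymes were called with or without scaling. Marker genes moved with the label too. The 2 loop of Henle genes summed to 14.5 to 30.9 FPKM in GABP-KD and 34.0 to 106 in db/db-veh, and scaled to 16.1 to 33.6 against 64.3 to 114, with no overlap on either scale. The 2 leukocyte genes summed to 3.58 to 11.5 FPKM against 0.508 to 3.84. Library db/db-GABP-KD 1 differed from its group in the 3 collecting duct genes. They summed to 346 FPKM in it, 37.8 and 43.8 in the remaining GABP-KD libraries, and 21.6 to 76.8 in db/db-veh. The 6 proximal tubule genes summed to 290, 323 and 388 FPKM in GABP-KD libraries 1 to 3, and to 180 to 526 in db/db-veh. Scaled, these sums ran from 169 to 423 in GABP-KD, lowest in db/db-GABP-KD 1, against 340 to 569 in db/db-veh. The part of these cell types in the enzyme levels was not tested.

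The GABP-OE and GABP-KD comparisons share no libraries, and the difference between their effects was tested for each enzyme. No enzyme had an adjusted p under 0.05 for the difference of effects by limma, where 0.132% of all genes did (5.44% at an unadjusted p under 0.05), and none did with median of ratios (0.0775% and 6.87% of all genes). Pklr had the largest difference, -1.34 log2 units (SE 0.48, limma adjusted p = 0.60), and Idh1 followed at -1.17 (SE 0.61, adjusted p = 0.99). As deposited, in both genes the GABP-OE mean was below its control and the GABP-KD mean above. Scaled, Pklr averaged 1.35 ± 0.22 FPKM in GABP-KD and 1.29 ± 0.49 in db/db-veh. Idh1 averaged 48.7 ± 3.77 and 48.1 ± 4.69 in the same order, so the GABP-KD means then lay close to those of db/db-veh.

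Shares of isozymes within a library do not depend on how libraries are scaled. With GABP-OE the shares of Idh1, Mdh1 and Pklr were each lower in all 3 libraries than in any db/m-veh library. The share of Idh1 in Idh1 and Idh2 was 55.7%, 48.9% and 63.5% in db/m-veh and 41.0%, 42.8% and 33.7% in GABP-OE. The share of Mdh1 in Mdh1 and Mdh2 was 66.2%, 78.1% and 71.7% in db/m-veh and 64.8%, 59.9% and 62.4% in GABP-OE. In both pairs the cytosolic form had its smaller share in every GABP-OE library. The share of Pklr in Pkm and Pklr was 8.81%, 8.41% and 14.99% in db/m-veh and 4.53%, 2.36% and 2.28% in GABP-OE. Each of the 3 had an exact two-sided permutation p of 0.1, the smallest that 3 against 3 libraries allow, or 0.275 adjusted by Benjamini-Hochberg over the 11 shares of the comparison, with means that differed by -16.8, -9.66 and -7.68 percentage points. The same 3 shares overlapped between the vehicle groups and between GABP-KD and db/db-veh. The genes of a pair differ in GC content, at 43.8% for Idh1 and 55.6% for Idh2. It was 45.7% for Mdh1 and 50.9% for Mdh2, and 54.2% for Pklr and 57.7% for Pkm. Libraries differed in how GC-rich genes stood against GC-poor ones, as given below, and the part of this in the shares was not tested.

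**Figure D3:**
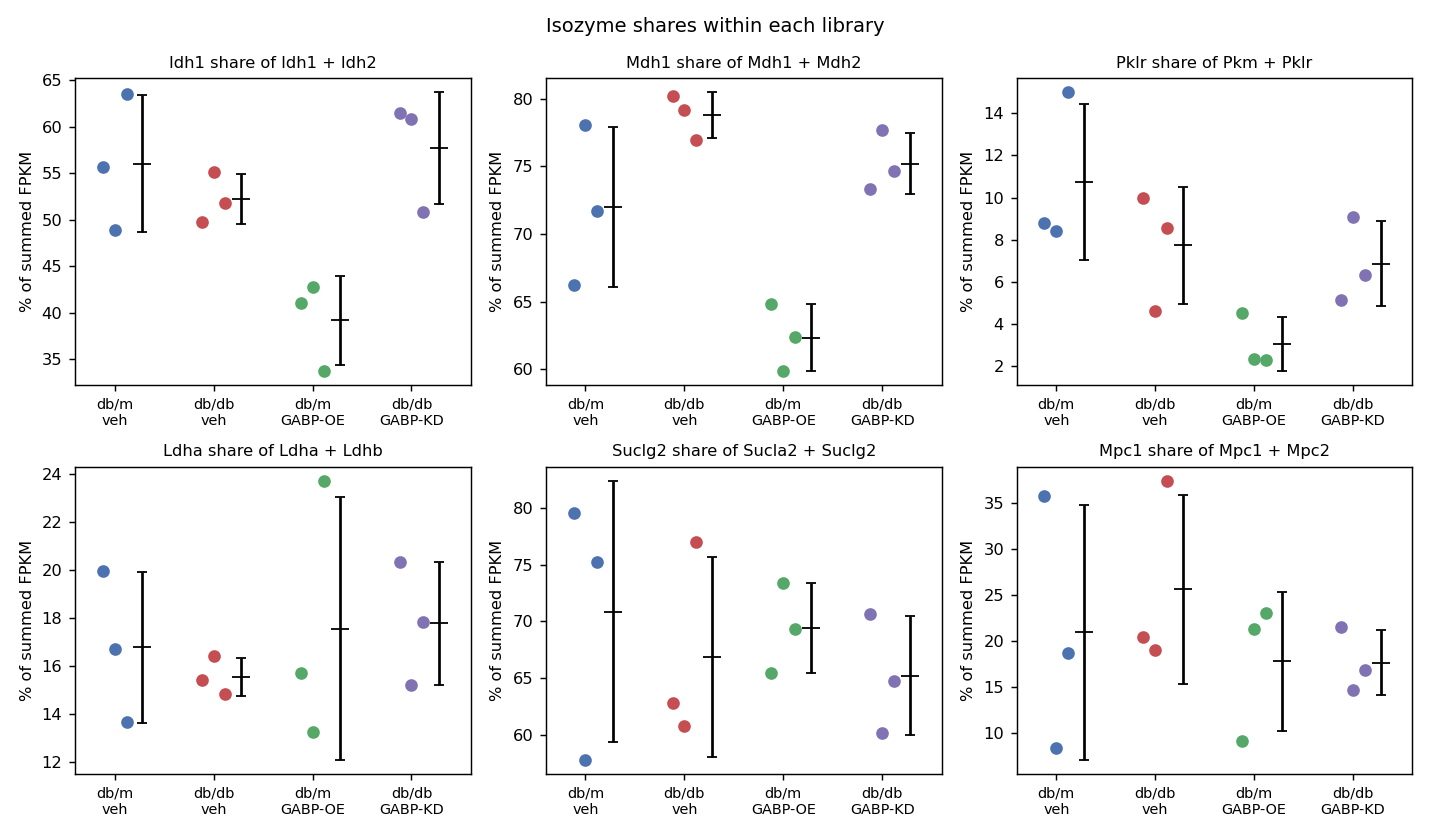
Share of 1 isozyme or subunit in the summed FPKM of its pair, in percent, for 6 pairs, with 1 point per library and a black bar for the group mean ± SD (n = 3); the y axes do not start at 0. The Idh1, Mdh1 and Pklr shares have their lowest means in GABP-OE, at 39.2%, 62.4% and 3.05%, and the Ldha, Suclg2 and Mpc1 shares overlap in every comparison.

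The lactate dehydrogenase share overlapped in every comparison. Ldha made up 16.8% ± 3.14 of Ldha and Ldhb in lean controls, 15.5% ± 0.80 in diabetic ones, 17.6% ± 5.46 in GABP-OE and 17.8% ± 2.55 in GABP-KD. The remaining 6 shares, of Hk2, Pfkm, Pfkp, Pdk1, Suclg2 and Mpc1, overlapped in every comparison.

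Some enzymes varied between libraries of a group more than between groups. Gapdh spanned 5.31 to 80.2 FPKM, a 15.1-fold range, and Pdk2, another pyruvate dehydrogenase kinase, 11.3 to 81.5 FPKM. Within the vehicle groups both were highest in db/m-veh 1 and db/db-veh 3, with Pdk2 at 59.1, 19.6 and 35.2 FPKM in db/m-veh and 20.7, 11.3 and 81.5 in db/db-veh. Pgk1, the phosphoglycerate kinase, was lowest of its group in db/m-veh 1, at 10.5 FPKM against 46.2 and 35.6 in the other db/m-veh libraries. Pdha1 (3.87 against 14.7 and 10.6) and Suclg1, a subunit of succinyl-CoA ligase (4.64 against 16.3 and 15.4), were lowest there too. These genes were picked after their values were seen. Over the genes tested, GC-rich genes stood highest against GC-poor ones in db/m-veh 1 and db/db-veh 3. The difference between GC-rich and GC-poor genes, in median log2 deviation from the mean over libraries, was 0.28 in db/m-veh 1 and 0.18 in db/db-veh 3, against -0.42 to 0.10 in the others. Its part in these levels was not tested.

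**Figure D4:**
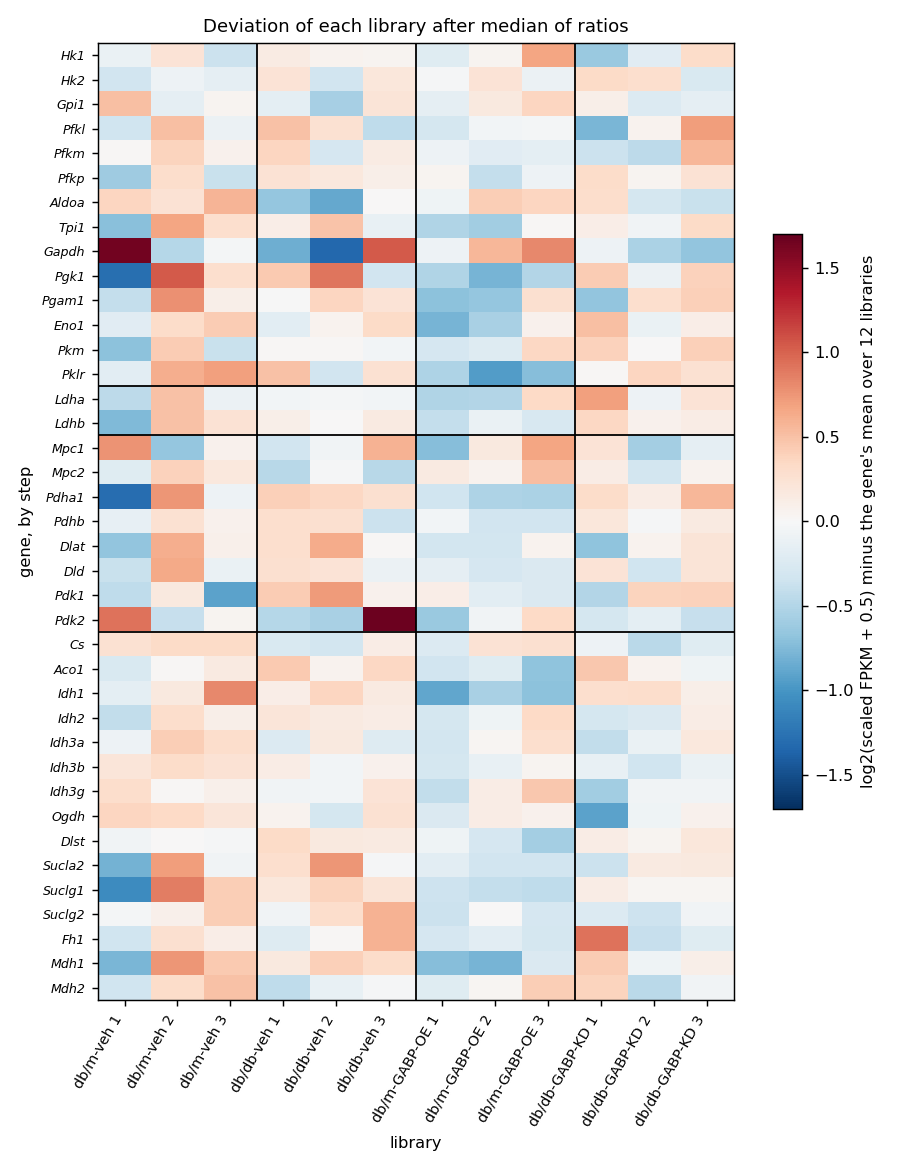
Deviation of each library from the gene's mean over the 12 libraries after median of ratios, as log2(scaled FPKM + 0.5), for the 39 enzyme genes (rows, by step) and 12 libraries (columns, by group), red above and blue below the mean. Gapdh and Pdk2 are red in db/m-veh 1 and db/db-veh 3, Pgk1, Pdha1 and Suclg1 are dark blue in db/m-veh 1, and the TCA genes are blue in db/m-GABP-OE 1.

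Further genes of the same pathways were examined from a list of 41, of which 39 were tested. None was called by limma in any comparison as deposited (0.093%, 1.9% and 0% of all genes were) or after scaling (0.171%, 0.209% and 0.0388%). As deposited 3, 2 and 1 had an unadjusted p under 0.05, against 11.5%, 15.1% and 14.3% of all genes. After scaling 5, 2 and 3 did, against 12%, 7.53% and 6.48%. Ldhd, the mitochondrial D-lactate dehydrogenase, was at 33.7, 26.5 and 30.7 FPKM in db/m-veh and at 15.3, 7.40 and 9.70 in db/db-veh. All diabetic libraries were lower on both scales (log2 fold change -1.50 with SE 0.37, limma adjusted p = 0.22, and -1.13, adjusted p = 0.17, after scaling). Ldhd was at 37.6 ± 9.51 FPKM in GABP-OE and 10.02 ± 0.36 in GABP-KD. Bpgm, which makes the bisphosphoglycerate of red cells, had means of 4.15 ± 1.07 and 2.12 ± 0.49 FPKM in db/m-veh and db/db-veh (log2 fold change -0.82 with SE 0.32, limma adjusted p = 0.33, and -0.51 after scaling).

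Pgam2, the muscle form of phosphoglycerate mutase, was at 27.6, 3.14 and 15.04 FPKM in db/m-veh and at 23.1, 53.4 and 48.9 in GABP-OE. The groups overlapped (log2 fold change 1.77 with SE 0.65, limma adjusted p = 0.20, and 1.34 after scaling). The 5 skeletal muscle markers, of which 1 was at 0 in all libraries, summed to at most 1.58 FPKM in any library. The part of muscle tissue in the Pgam2 levels was not tested. In GABP-KD, Hkdc1, a hexokinase-like gene, was at 1.11, 0.159 and 0.360 FPKM against 0.0862, 0 and 0.152 in db/db-veh (log2 fold change 0.75 with SE 0.28, limma adjusted p = 0.34, and 0.59 after scaling). Pgam2 was at 22.7, 7.91 and 12.7 FPKM against 6.14, 2.47 and 9.30 (log2 fold change 1.24 with SE 0.65, limma adjusted p = 0.35, and 0.69 after scaling). Both genes were highest in db/db-GABP-KD 1, without which their log2 fold changes were 0.39 and 0.86 as deposited (limma adjusted p = 0.65 and 0.73) and 0.40 and 0.60 after scaling. Of the 5 gluconeogenesis genes tested 0 were called in any comparison. As deposited 0.093%, 1.9% and 0% of all genes were, and after scaling 0.171%, 0.209% and 0.0388%. In GABP-OE 4 of the 5 lay below the all-gene median on both scales. Their median log2 fold change was -0.45 as deposited and -0.89 after scaling. An unadjusted limma p under 0.05 was reached by 1 as deposited and 3 after scaling, against 15.1% and 7.53% of all genes. The gene above the all-gene median was Pck2. Pck2, the mitochondrial phosphoenolpyruvate carboxykinase, was at 0.91, 0.88 and 1.32 FPKM in db/m-veh and at 2.09, 2.76 and 2.19 in GABP-OE. Its libraries did not overlap on either scale (log2 fold change 0.89 with SE 0.27, limma adjusted p = 0.11, and 0.55, adjusted p = 0.52, after scaling).

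The 4 enzymes with the GABP motif in their promoter lay within the range of the others. In GABP-OE their median log2 fold change after median of ratios was -0.19, with a range of -0.39 to -0.02, beside -0.26 for the 33 tested enzymes without it. In GABP-KD it was -0.24 beside -0.10. The ranges of both sets overlapped.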

How the data were processed

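The authors deposited FPKM per gene and library, and all 12 value columns were used. The submitters' processing notes name HTSeq and GRCm39. The aligner, annotation, strand setting and handling of reads shared by several genes were details not given in the sources used here. Levels of genes with near-identical copies, such as Gapdh, Ldha, Pgk1, Eno1 and Aldoa, are therefore uncertain. With GENCODE M21 exon lengths (GRCm38) the deposited FPKM gave whole fragments in every library for 21416 genes (98.3%, tolerance 0.05 fragments), Mdh1 not among them, and coordinates are those of M21.

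Deposited FPKM were taken to log2(FPKM + 0.5) and tested with limma 3.58.1 (R 4.3.3), which fitted 4 group means and a variance trend to the 12897 genes that reached FPKM 0.3 in 3 or more libraries. Tests were two-sided, and a gene was called when its p, adjusted by Benjamini-Hochberg over all of these, was under 0.05. The fit was also run on simulated data, with changes larger than those of the enzymes here and no variation in mitochondrial share. That run gives no measure of power for differences of the size seen here. Median of ratios factors came from 5884 genes above 1 FPKM in every library. Isozyme shares were compared by exact permutation, and 1 of the 11 in the adjustment is not reported here. Python 3.11.15, pandas 2.3.3, numpy 2.4.6 and matplotlib 3.10.9 did the rest. The members, lists and tests were chosen with earlier results of these data known. Named in full are, per comparison, enzymes with adjusted p under 0.05 and the 3 with the smallest p of each step, with values in all libraries for those named in at least 2 comparisons; from the other lists, the 2 with the smallest p. Others were chosen after their values were seen. Alternatives were pseudocounts of 0.1 and 1, other filters and scalings, no variance trend, library weights, a replicate block, fits of 2 groups, voom on recovered fragments and each library left out.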

Additional observations from a re-analysis of the deposited data

How the results depend on the processing

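Values here are log2 fold changes relative to the median of all genes, a form chosen after seeing that the scaling moved all genes together. The count of enzymes called stayed at 0 in all comparisons under each alternative except 3, of which the last 2 were added after seeing the data. These were library weights (3 in GABP-OE), library weights with median of ratios (8 in db/db-veh and 11 in GABP-OE), and leaving out db/m-veh 1 with median of ratios (1 in GABP-OE, Pklr). Leaving out 1 library of the deposited values gave 0 calls each time. The labels do not say whether the replicate numbers pair the samples. Correlations of same-numbered libraries ran from -0.45 to 0.35, which cannot settle this with 3 libraries per group. With the replicate block 0 enzymes were called in each comparison. The sign of the enzymes' median depended on the setting in db/db-veh and GABP-KD. In db/db-veh it turned from -0.05 to 0.022 with pseudocount 0.1, 0.051 with median of ratios with or without the replicate block, 0.12 with an equal FPKM sum, 0.24 with quantile normalization and 0.017 with voom. In GABP-KD it turned from 0.06 to -0.047 with pseudocount 0.1, -0.0088 with a filter at FPKM 1, -0.10 with median of ratios with or without the block, -0.13 with the equal sum, -0.22 with quantile normalization, -0.036 with library weights (-0.11 with median of ratios added) and -0.070 with voom. In GABP-OE it was below 0 in each setting run. Leaving out 1 library, it ranged from -0.25 to 0.07 in db/db-veh, from -0.37 to -0.11 in GABP-OE and from 0.00 to 0.20 in GABP-KD.

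Signs also turned for single enzymes with small differences, and the causes were not tested. In db/db-veh, Ldha came to 0.046 with an equal FPKM sum and 0.22 with quantile normalization. Ldhb came to 0.034 with pseudocount 0.1, 0.077 with median of ratios with or without the replicate block, 0.17 with the equal sum, 0.58 with quantile normalization and 0.048 with voom. Pdhb came to 0.066 with the equal sum and 0.10 with quantile normalization. In GABP-OE, Mpc2 came to -0.015 with library weights and Mpc1 to 0.00672 with no filter. Idh2 came to -0.036 with pseudocount 0.1, -0.047 with median of ratios with or without the replicate block, -0.085 with the equal sum, -0.077 with voom, and -0.11 with library weights. Idh3g came to 0.041 with pseudocount 1 and 0.071 with no filter. In GABP-KD, quantile normalization gave -0.076 for Eno1, -0.23 for Ldhb, -0.045 for Pdhb, -0.097 for Pdha1, -0.092 for Idh3a and -0.22 for Idh1. The equal sum gave -0.038 for Pdha1, -0.050 for Idh3a and -0.015 for Idh1. Median of ratios, with or without the replicate block, gave -0.00875 for Pdha1 and -0.022 for Idh3a, and library weights gave -0.078 for Eno1 and -0.035 for Mdh2. As a log2 ratio, the Hk2 share differed by -0.33 in GABP-OE.

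Leaving out 1 library in turn, values in db/db-veh ranged from -0.39 to 0.060 for Ldha, from -0.44 to 0.17 for Ldhb and from -0.27 to 0.059 for Pdhb. In GABP-OE they ranged from -0.039 to 0.52 for Pkm, from -0.45 to 0.083 for Ldha, from -0.59 to 0.030 for Ldhb, from -0.00883 to 0.28 for Mpc2, from -0.44 to 0.32 for Mpc1, from -0.16 to 0.20 for Idh2 and from -0.24 to 0.22 for Idh3g. Low genes such as Hk2 and Pklr are limited by depth.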
